A study of Mus musculus with 6 samples.

Results

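*Rell1*, a gene on mouse chromosome 5, encodes a member of the RELT family of membrane proteins. It was examined together with 5 genes at higher positions on the chromosome that had been compared with it. In order, these were *Gm71522*, *5830416I19Rik*, *Pgm2*, *Tbc1d1* and *Klf3*, with other annotated genes between some of them. The 6 genes were found in the deposited table by their symbols, 1 row each, among 78275 genes, and all 6 were among the 16105 genes with enough counts to be tested. They were chosen by name with their difference between the genotypes already known, so the difference itself is described here for these 6 genes and is not tested. RNA was sequenced from TCRβhigh CD4-CD8+ T cells sorted from 3 wildtype (WT) and 3 BIT mice, 1 library per mouse. BIT mice are homozygous for an allele in which the cDNA of *Psmb11*, encoding the thymoproteasome subunit β5t, sits at the translation start of *Psmb8*, encoding the immunoproteasome subunit β5i, on chromosome 17. The allele was made with Cas9 in C57BL/6 embryos, and the BIT mice were of 1 line unless stated otherwise, so that anything else carried by that line cannot be told apart from the allele. The labels give all mice as males of 9 to 10 weeks with no treatment, and name lymph nodes as the source but lymph nodes and spleens in the protocol.

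The RELT family comprises *Relt*, *Rell1* and *Rell2*, whose proteins resemble receptors of the tumour necrosis factor receptor superfamily and have been tied to the kinase OSR1 and to p38 MAP kinase signalling. *Pgm2* encodes a phosphopentomutase, which moves the phosphate of ribose between its carbons and so links nucleoside breakdown to the pentose phosphate pathway. *Tbc1d1* encodes a GTPase-activating protein for Rab proteins of glucose transporter vesicles and is phosphorylated by AMPK and AKT, and *Klf3* encodes a zinc finger repressor that binds CACCC sequences and recruits CtBP. *Gm71522* and *5830416I19Rik* are annotated as long non-coding RNAs, and no function is assigned to them here.

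On GRCm39, *Rell1* (ENSMUSG00000047881.15) spans chr5:63986690-64126372 on the minus strand, so its start is at the higher coordinate and faces the other 5 genes, which all lie on the plus strand. Between the start of *Rell1* and *Gm71522* (chr5:64187388-64200435) are 61015 bases with 2 further annotated genes, neither with a count in any library. *5830416I19Rik* (chr5:64202316-64215554) begins 1880 bases after *Gm71522* ends, and the 2 long non-coding RNAs together cover 28167 bases. *Pgm2* (chr5:64250272-64285817) follows after 34717 bases, *Tbc1d1* (chr5:64313648-64508829) after another 27830 and *Klf3* (chr5:64959875-64990261) after another 451045. The starts of *Rell1* and *Pgm2* are 123899 bases apart with both long non-coding RNAs between them.

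No other gene with a count in any library lies between the 4 genes that were lower in every BIT mouse than in any WT mouse. The 250 bases before their annotated starts are shown, since these 4 genes were lower together. Each is from the GRCm39 genome, 5′ to 3′ on the strand of its gene, and capitals mark matches on either strand to 6 motifs. These were GGGCGG for a GC box, CCAAT for the box of that name, TATAAA for a TATA box, CCGGAAG for the ETS family, TGTGGT for the RUNX family and CCACCC for the CACCC motif, and none of which overlapped another here.
Rell1, chr5:64126373-64126622, minus strand: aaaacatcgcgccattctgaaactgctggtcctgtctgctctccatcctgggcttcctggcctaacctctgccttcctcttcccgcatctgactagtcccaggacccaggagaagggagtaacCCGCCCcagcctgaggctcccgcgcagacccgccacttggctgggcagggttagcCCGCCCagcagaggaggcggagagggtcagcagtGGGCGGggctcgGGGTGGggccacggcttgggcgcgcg
Gm71522, chr5:64187138-64187387, plus strand: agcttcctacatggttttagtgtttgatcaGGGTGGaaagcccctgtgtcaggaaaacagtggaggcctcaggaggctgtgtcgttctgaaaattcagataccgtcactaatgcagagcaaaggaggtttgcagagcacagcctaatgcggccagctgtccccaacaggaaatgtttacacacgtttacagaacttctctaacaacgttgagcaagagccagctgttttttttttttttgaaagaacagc
5830416I19Rik, chr5:64202066-64202315, plus strand: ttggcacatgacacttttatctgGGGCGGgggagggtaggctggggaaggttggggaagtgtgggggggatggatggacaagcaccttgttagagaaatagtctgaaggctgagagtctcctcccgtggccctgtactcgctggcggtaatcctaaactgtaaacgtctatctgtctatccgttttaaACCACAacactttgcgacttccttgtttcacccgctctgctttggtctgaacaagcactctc
Pgm2, chr5:64250022-64250271, plus strand: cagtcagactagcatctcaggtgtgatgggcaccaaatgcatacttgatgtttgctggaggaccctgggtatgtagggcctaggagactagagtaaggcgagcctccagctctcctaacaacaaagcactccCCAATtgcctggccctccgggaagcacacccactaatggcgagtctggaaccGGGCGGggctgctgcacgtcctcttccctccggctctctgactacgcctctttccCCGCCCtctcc
The window of *Rell1* was the richest in CpG of the 4, with 15 CpG dinucleotides and a GC content of 66.8%, against 9 and 58.8% for *Pgm2*, 8 and 52% for *5830416I19Rik* and 5 and 46% for *Gm71522*. The median over the windows of 78258 annotated genes was 3 CpG dinucleotides and a GC content of 47.2%. *Rell1* held 3 GC boxes and 1 CACCC motif, *Pgm2* held 2 GC boxes and 1 CCAAT box, *5830416I19Rik* held 1 GC box and 1 RUNX motif, and *Gm71522* held 1 CACCC motif. No motif was found in all 4 windows. Of all windows, 15.9% held a GC box, 32.9% a CCAAT box, 15.4% a TATA box, 3.39% an ETS motif, 16.4% a RUNX motif and 21.6% a CACCC motif. These matches describe letters in a window and do not show that a factor binds there.

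The libraries held between 37467678 and 52922675 estimated counts, and a count of 0 allows up to 3 counts, a level of 0.0567 CPM (counts per 1e6 counts of the library) in the deepest library and 0.0801 CPM in the shallowest. These floors and all counting intervals cover counting error only. The altered genes followed the labels in all 6 libraries, with *Psmb8* between 8024 and 10790 counts in WT mice and between 59 and 73 in BIT mice, and *Psmb11* at 0 counts in WT mice and between 1226 and 1926 in BIT mice. WT replicate 3 went against its label of a male, since its *Xist* count was 66626 and 4 genes of the Y chromosome had 0, and replicate 3 of both genotypes lay apart from the other libraries on the first principal component, at 54.6 and 28.6 against -36.5 to -3.31 for the other 4. Markers of the labelled cell type were high, with 10 CD8 T cell markers summing to between 5070 and 6140 CPM in WT mice and between 5190 and 6030 in BIT mice. Of these 10, 4 were higher and 6 lower in BIT, with a median log2 difference of -0.106. None passed an adjusted p of 0.05 by limma-voom, edgeR or DESeq2, with 3, 1 and 1 at an unadjusted p under 0.05 (1380, 1198 and 1161 of all 16105 genes). *Trbc1* at -0.45, *Cd3g* at -0.34 and *Cd247* at -0.24 did not overlap between the groups, as in 13.3% of all genes. The 3 CD4 T cell markers summed to at most 4.61 CPM in any library. Summed B cell markers were at 313 to 376 CPM in WT and 328 to 351 in BIT mice, most of it from *Ighm* (log2 difference -0.08). All 7 B cell markers had a log2 difference of BIT over WT below 0, with a median of -0.37 and *Pax5* at -0.58 and *Ebf1* at -0.54. By limma-voom, edgeR and DESeq2, 0 of the 7 passed an adjusted p of 0.05, with 0, 0 and 1 at an unadjusted p under 0.05. Summed γδ T cell markers were at 6.40 to 7.27 and 5.68 to 7.74 CPM. The 8 myeloid markers summed to 11.9 to 20.0 CPM in WT and 10.9 to 12.1 in BIT mice, and 5 of the 7 tested were lower in BIT, with a median of -0.45. The other 2, *S100a8* and *S100a9*, were at 1.84 and 2.22, between overlapping groups. None of the 7 passed an adjusted p of 0.05 by limma-voom, edgeR or DESeq2, with 0, 1 and 2 at an unadjusted p under 0.05. The 6 stroma markers summed to 105 to 113 CPM in WT and 98.1 to 102 in BIT mice, the only marker list whose sums did not overlap. Nearly all of this was *Pecam1*, at 109 ± 4.22 and 101 ± 2.29 CPM (SD, n = 3 each), a log2 difference of -0.16 (adjusted p = 0.63 by limma-voom). *Cdh5* had 11, 13 and 7 counts in WT and 0, 3 and 1 in BIT mice. *Col1a1* had 18, 4 and 6 against 8, 14 and 10, and *Col1a2* 0, 2 and 3 against 1, 0 and 2. *Pdpn* and *Ccl19* had no count. In these bulk libraries, fewer cells of a type and less RNA per cell cannot be told apart, and the part of other cells in the differences below was not tested.

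*Rell1* was reduced in BIT CD8+ T cells but not lost. Its counts were 738, 650 and 589 in the 3 WT mice and 202, 168 and 181 in the 3 BIT mice. Scaled to library size with TMM factors, this was 13.8 ± 0.269 CPM in WT and 4.44 ± 0.378 CPM in BIT mice (SD, n = 3 each), 32.0% of the WT mean. Every BIT mouse lay below every WT mouse, and over the 9 possible pairs of a BIT and a WT mouse the level was between 28.5% and 35% of WT. The fitted difference was -1.61 on the log2 scale (SE 0.142), and -1.64 without WT replicate 3. *Rell1* therefore remained measurable in each BIT mouse, at 168 counts or more. *Pgcka1*, on the opposite strand, overlaps the lower end of *Rell1* and had between 0 and 4 counts in any library, and without the strand setting reads of the overlap cannot be told apart.

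Counts of both long non-coding RNAs were nearly absent from BIT mice. *5830416I19Rik* had 232, 221 and 220 counts in the WT mice and 2, 0 and 0 in the BIT mice. Its WT level was 4.74 ± 0.363 CPM (SD, n = 3), and the pooled BIT counts came to 0.343% of WT, with an exact 95% counting interval of 0.0414% to 1.24%. Both remaining counts were in BIT replicate 1. *Gm71522* was a low transcript already in WT mice, with 21, 31 and 24 counts, a level of 0.538 ± 0.125 CPM (SD, n = 3), and had 0 counts in each BIT mouse. Against the floor of 3 counts over the BIT group, with the WT counts taken as exact, it was 22.0-fold lower in BIT mice. The exact 95% counting interval of the pooled counts, which covers the counting error of both groups, was 0% to 5.74% of WT. Its low level in WT mice limits both values. The 2 transcripts are annotated 1880 bases apart on the same strand, and gene-level counts do not tell whether they are parts of 1 transcript.

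*Pgm2*, the next gene, was lower by a smaller amount. Its counts were 1275, 1187 and 1044 in WT mice and 807, 810 and 714 in BIT mice, which gave 24.6 ± 0.256 CPM in WT and 18.8 ± 0.827 CPM in BIT mice (SD, n = 3 each). The BIT level was 76.3% of WT, between 71.7% and 79.5% over the 9 pairs of mice, and the groups did not overlap. The fitted difference was -0.39 on the log2 scale (SE 0.0879), and -0.38 without WT replicate 3. The spread between mice was small in both groups, at 1.04% of the mean in WT and 4.41% in BIT mice.

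*Tbc1d1* and *Klf3*, farther from *Rell1*, had overlapping levels in the 2 genotypes. *Tbc1d1* had 4729, 3820 and 4033 counts in WT and 3948, 3979 and 4025 in BIT mice, at 88.3 ± 7.42 and 96.3 ± 3.77 CPM (SD, n = 3 each). Its fitted difference was 0.08 on the log2 scale (SE 0.0926), and BIT replicate 1 fell below WT replicate 3. *Klf3* had 17348, 15284 and 16495 counts in WT and 14524, 16401 and 15210 in BIT mice, at 346 ± 34.9 and 372 ± 26.0 CPM (SD, n = 3 each), and a fitted difference of 0.04 (SE 0.116). Without WT replicate 3 the 2 differences were both 0.15. These overlapping values do not show that the genotypes were equal. Over the 9 pairs, which reuse the same mice, the BIT level was between 88.8% and 123% of WT for *Klf3* and between 98.8% and 126% for *Tbc1d1*.

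**Figure D1:**
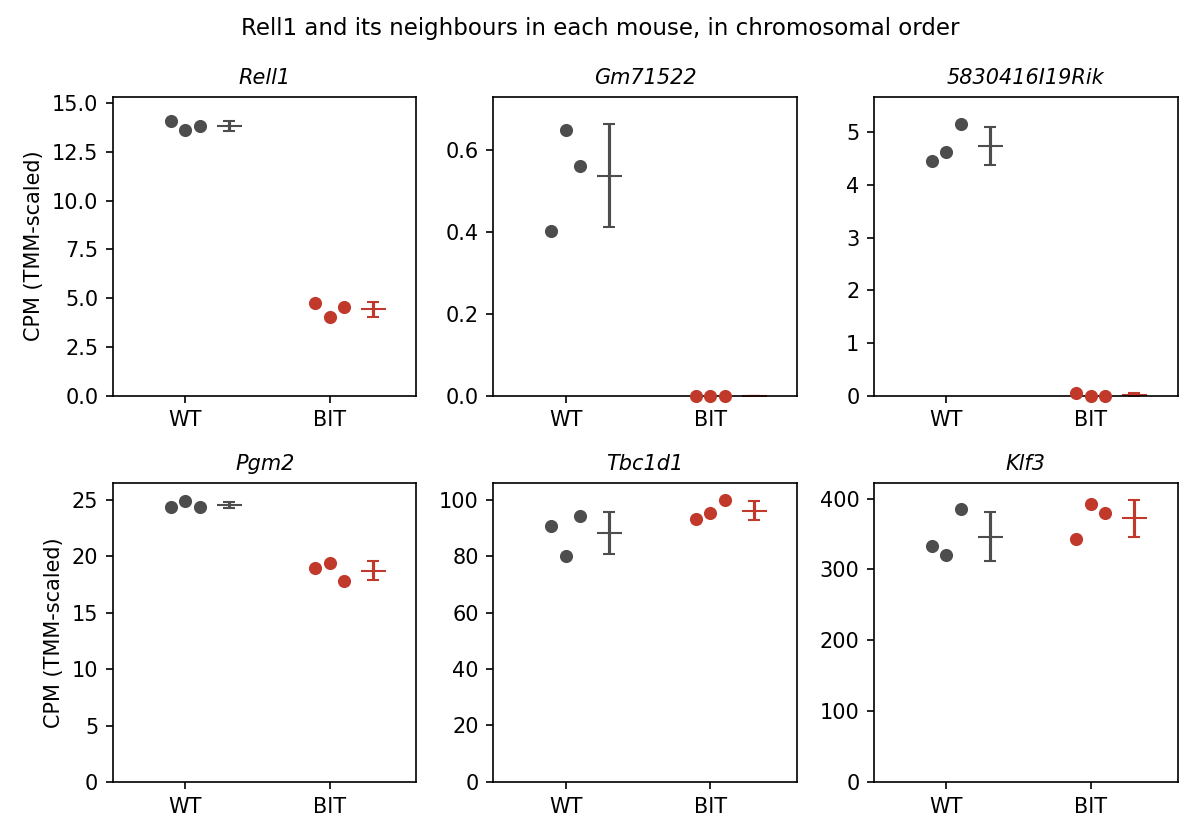
TMM-scaled CPM on the vertical axes, each starting at 0, for the 6 genes in chromosomal order. Points are single mice and bars the mean ± SD of the 3 mice. The 3 BIT mice lie below the 3 WT mice for Rell1, Gm71522, 5830416I19Rik and Pgm2 and among them or above for Tbc1d1 and Klf3.

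Of the 6 genes, 3 passed an adjusted p of 0.05 in the whole-table fit (*Rell1*, *Gm71522* and *5830416I19Rik*, all lower in BIT), where 0.137% of all tested genes passed in either direction and 0.0559% passed as lower. In 4 of the 6, the WT and BIT mice did not overlap on the normalized log2 scale, as in 13.3% of all genes. edgeR and DESeq2 each passed 2 of the 6, *Rell1* and *5830416I19Rik*, and did not pass *Gm71522*. Since these differences chose the genes, nothing is read from either count. The number that passed was 0 without WT replicate 1 and 0 without BIT replicate 2, while the fitted difference of *Rell1* was -1.57 and -1.55 in those fits.

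Per length of annotated exon, the level in WT mice fell in the order *Klf3* (23.1 ± 2.32 CPM per kb), *Tbc1d1* (11.5 ± 0.964), *Pgm2* (3.02 ± 0.0315), *Rell1* (1.36 ± 0.0264), *5830416I19Rik* (1.03 ± 0.0789) and *Gm71522* (0.501 ± 0.117, SD, n = 3 each). No neighbours in this order overlapped between mice. *Rell1* stood above 42.2% of all tested genes by this measure, *Klf3* above 92.8% and *Gm71522* above 23.7%. In BIT mice *Klf3* (24.8 ± 1.74), *Tbc1d1* (12.5 ± 0.49) and *Pgm2* (2.31 ± 0.102) kept this order, *Rell1* was at 0.434 ± 0.037 CPM per kb, and the 2 long non-coding RNAs could not be ordered at this depth. Levels between genes depend on which exons are used, which gene-level counts do not give.

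To find how far along the chromosome the reduction extended, the other annotated genes within 1 Mb of the 6 were examined. The table listed 95, of which 40 had enough counts to be tested and 32 had no count in any library. In limma-voom with Benjamini-Hochberg adjustment over all genes, 0 of the 40 passed an adjusted p of 0.05, with 4 at an unadjusted p under 0.05. edgeR's quasi-likelihood test called 0 of them, with 2 at an unadjusted p under 0.05, and DESeq2 called 2 (*Rfc1* and *Gm3521*, each at an adjusted p of 0.032), with 4. Of all 16105 genes tested, 1380 had an unadjusted p under 0.05 by limma-voom, 1198 by edgeR and 1161 by DESeq2. The median log2 difference of the 40 was -0.023, beside 0.0118 for all tested genes. *Pgm2* did not pass an adjusted p of 0.05 in any fit, so this threshold cannot show where a reduction of that size ends.

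Below *Rell1* the expression data set no edge. The 8 annotated genes that lie at least partly within 1 Mb below its lower end were too low to test, 5 of them without a count, and so was *Gm15819* inside *Rell1*. The nearest tested gene on that side was *Arap2* (chr5:62759788-62923755), encoding a GTPase-activating protein for Arf proteins, which lies beyond the 1 Mb window. It had 6860, 5730 and 5419 counts in WT and 5503, 5691 and 6126 in BIT mice, and a log2 difference of 0.09 (SE 0.0947, adjusted p = 0.814 by limma-voom), with the mice of both genotypes mixed.

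Between the start of *Rell1* and the end of *Klf3* lay 37 further annotated genes, of which 10 were tested, 3 higher and 7 lower in BIT. Of these, 0 had an unadjusted p under 0.05 by limma-voom or edgeR and 1 by DESeq2, and none of the 3 tools called any. All 10 began above the start of *Tbc1d1*, so no tested gene other than the 6 lay between *Rell1* and *Tbc1d1*. *Gm43721* and *Gm6044*, inside *Tbc1d1*, had log2 differences of 0.34 and 1.03. From the gap between *Tbc1d1* and *Klf3*, *Gm43838* was at -0.46, *1700027F09Rik* at 1.64, *Gm73453* at -0.12, *Gm42566* at -2.37, *Gm3716* at -0.45 and *Gm71381* at -0.23. The extremes rested on few counts and uneven mice. *1700027F09Rik* had 1, 9 and 14 counts in WT and 2, 20 and 23 in BIT mice, and *Gm42566* had 61.3, 101 and 12 estimated counts in WT and 29.9, 6.52 and 1.16 in BIT mice. *Gm20033*, which overlaps the start of *Klf3* on the opposite strand, was at -0.10.

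*C230096K16Rik*, annotated inside *Klf3* on the same strand, had a log2 difference of -0.46 (SE 0.444, adjusted p = 0.798 by limma-voom). Its counts were 938, 1134 and 1852 in WT and 503, 648 and 1574 in BIT mice, 10.3% and 11.2% of the *Klf3* level in replicate 3 of the 2 genotypes and 3.46% to 7.42% in the other 4 libraries. *Gm43721* relative to *Tbc1d1* was likewise highest in replicate 3 of both genotypes, at 2.66% and 3.05% against 0.861% to 1.76%. Reads of such transcripts inside a gene cannot be told apart from unspliced reads of that gene.

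Above *Klf3*, 30 of 49 annotated genes were tested, 16 higher and 14 lower in BIT. *Tlr1* and *Tlr6*, encoding receptors for bacterial lipopeptides, were at log2 differences of -0.16 and 0.10. Among the other protein-coding genes, the difference was -0.48 for *Fam114a1*, 0.08 for *Tmem156*, 0.07 for *Klhl5*, -0.02 for *Wdr19*, -0.23 for *Rpl9*, -0.05 for *Lias*, 0.08 for *Ugdh*, -0.17 for *Smim14*, -0.20 for *Ube2k*, 0.01 for *Pds5a* and -0.13 for *N4bp2*. *Rpl9* encodes a protein of the large ribosomal subunit, *Pds5a* a regulator of cohesin and *Ugdh* the enzyme that makes UDP-glucuronate. *Gm43552*, which shares its interval with *Ugdh* and *Smim14* and whose counts were split by the counting, was at 1.53 with 19.9, 64.4 and 12.1 estimated counts in WT and 61.7, 80.4 and 39 in BIT mice. Those groups overlapped, and its adjusted p was 0.553 by limma-voom.

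*Rfc1*, encoding the large subunit of the clamp loader of DNA replication, did not overlap between the groups after normalization. Its counts were 3801, 3247 and 2776 in WT and 3687, 3842 and 3465 in BIT mice, with a log2 difference of 0.32 (SE 0.0753, adjusted p = 0.349 by limma-voom). *Gm3521*, the last gene of the window, was the other whose groups did not overlap, with 78, 86 and 105 counts in WT and 30, 31 and 29 in BIT mice and a difference of -1.21 (SE 0.272, adjusted p = 0.312 by limma-voom). These were 2 of the 40 tested neighbours, beside 13.3% of all tested genes in which the WT and BIT mice did not overlap. The exact permutation test of either gene gave p = 0.1, two-sided, the smallest that 3 mice against 3 allow. Over the 16 fits the adjusted p of each ranged from 0.032 to 0.999.

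The other 14 tested genes above *Klf3* were non-coding, pseudogenes or of unsettled type. *4930589O11Rik* had 69, 91 and 126 counts in WT and 26, 15 and 67 in BIT mice, a difference of -1.26 (SE 0.417, adjusted p = 0.526 by limma-voom) between overlapping groups. *Gm71589* was at 0.92 and the other 12 lay nearer 0, with *Gm73906* at -0.25, *Gm73098* at -0.13, *Gm43290* at -0.04, *Gm21011* at -0.03, *Gm42648* and *1110003F10Rik* each at 0.06, *N4bp2os* at 0.09, *C030017G13Rik* at 0.21, *Gm42728* at 0.23, *Gm42725* at 0.29, and *Gm40309* and *Gm43628* each at 0.41.

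**Figure D2:**
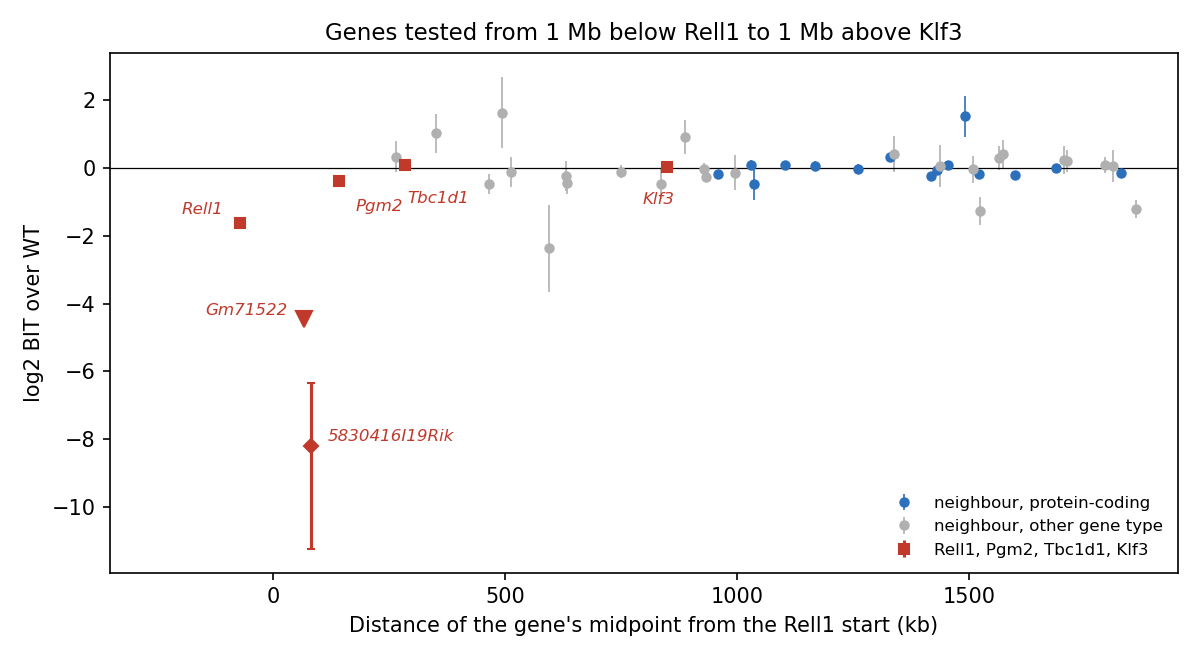
The log2 difference of BIT over WT against the distance of each gene's midpoint from the start of Rell1, for the 6 genes in red and the 40 other tested genes in blue or grey. Bars are standard errors of the fit, except for 5830416I19Rik (pooled count ratio with its exact 95% counting interval) and Gm71522 (triangle, 22.0-fold lower at the floor of 3 BIT counts). Rell1 at -1.61 and the long non-coding RNAs lie apart from Tbc1d1 at 0.08 and Klf3 at 0.04, and no tested gene lies to the left of Rell1.

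The relatives of the 4 protein-coding genes elsewhere in the genome were examined beside them. *Relt* was the most abundant RELT family gene, at 6.11 CPM per kb in WT and 6.82 in BIT mice, and its log2 difference was 0.15 (SE 0.0956, adjusted p = 0.702 by limma-voom). *Rell2* was at 0.844 and 0.846 CPM per kb, with a difference of 0.09 (SE 0.19, adjusted p = 0.912). In WT mice *Rell1* lay between them, and in BIT mice it lay below both. *Pgm1*, encoding the main phosphoglucomutase, was at 0.12 on the log2 scale (adjusted p = 0.778 by limma-voom), and *Pgm2l1*, encoding the glucose 1,6-bisphosphate synthase, at 0.20 (adjusted p = 0.647). *Tbc1d4*, the paralogue of *Tbc1d1*, was at -0.19 (adjusted p = 0.748 by limma-voom), and its level per length was 0.648 CPM per kb in WT mice, far under that of *Tbc1d1*. *Klf2*, a factor of naive T cell quiescence and trafficking, was at 164 CPM per kb in WT and 193 in BIT mice, with a difference of 0.18 (adjusted p = 0.633 by limma-voom).

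**Figure D3:**
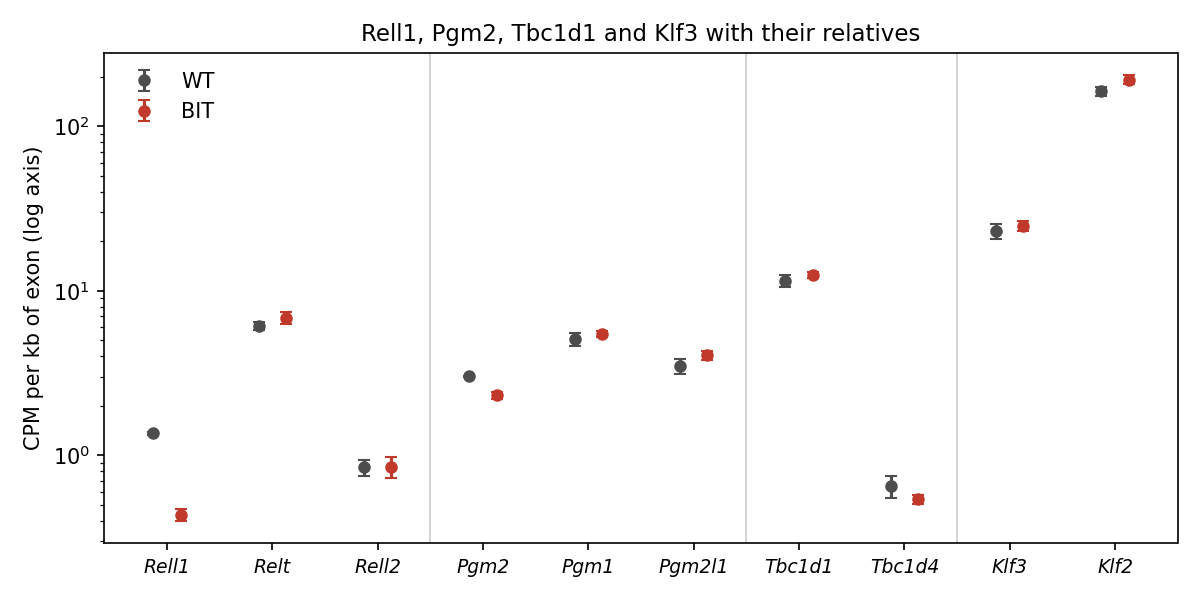
Mean ± SD over 3 mice of CPM per kb of exon, on a log axis, for Rell1, Pgm2, Tbc1d1 and Klf3, each followed by its relatives, in WT (grey) and BIT (red). Rell1 drops from 1.36 to 0.434, whereas Relt (6.11 and 6.82) and Rell2 (0.844 and 0.846) have similar levels in both genotypes.

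Partners and pathway genes of the 4 were described from 4 lists. No gene of any list passed an adjusted p of 0.05 in limma-voom, of 68 tested, 5 of them at an unadjusted p under 0.05. edgeR called 0 with 4, and DESeq2 called 1 (*Mapk11*, adjusted p = 0.0189) with 4. Of all 16105 genes tested, an unadjusted p under 0.05 was found for 1380 by limma-voom, 1198 by edgeR and 1161 by DESeq2. Of 17 genes of the RELT family and its p38 partners, 15 were tested, 9 higher and 6 lower in BIT, with a median log2 difference of 0.0685. *Mapk11*, encoding p38β, had 281, 208 and 182 counts in WT and 273, 433 and 359 in BIT mice, a difference of 0.89 (SE 0.222, adjusted p = 0.378 by limma-voom and between 0.0189 and 0.999 over the 16 fits). After scaling, its groups did not overlap, as in 3 of the 15 tested genes of this list and 13.3% of all genes. *Mapk14*, encoding p38α, was at 0.10, the kinase genes *Oxsr1* and *Stk39* at 0.07 and -0.17, and *Plscr1* at -0.36.

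Of 21 genes of phosphohexomutases and ribose phosphate supply, 19 were tested, 11 higher and 8 lower, with a median of 0.00174 and 0 at an unadjusted p under 0.05 by limma-voom, edgeR or DESeq2. *Pgm2l1* had the smallest adjusted p, 0.647 by limma-voom. *Pnp*, encoding the purine nucleoside phosphorylase that makes the substrate of PGM2, was at -0.09, *Dera* at -0.19, and *Tkt* and *Taldo1* of the pentose phosphate pathway at -0.05 and -0.01. All 16 genes of the TBC1D1 paralogue, kinases and Rab targets were tested, 12 higher and 4 lower, with a median of 0.0409. *Slc2a1*, encoding the glucose transporter GLUT1, had the smallest p of this list, with 1431, 1163 and 966 counts in WT and 1234, 1262 and 1116 in BIT mice and a difference of 0.22 (SE 0.0933, adjusted p = 0.57 by limma-voom).

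Of 24 KLF family genes and KLF3 cofactors and targets, 18 were tested, 7 higher and 11 lower, with a median of -0.0584. *Hdac1*, encoding a histone deacetylase, had the smallest p, with 5575, 5142 and 3699 counts in WT and 3823, 3530 and 3142 in BIT mice and a difference of -0.30 (SE 0.0955, adjusted p = 0.511 by limma-voom). *Klf4*, encoding a factor that restrains T cell proliferation, had the largest difference of this list, -1.50 (SE 0.528, adjusted p = 0.535 by limma-voom). Its counts were 135, 127 and 242 in WT and 28, 23 and 142 in BIT mice, high in replicate 3 of both genotypes and overlapping between the groups, and on replicates 1 and 2 alone its adjusted p was 0.0476. *Lgals3*, a gene that KLF3 represses, was at -0.91, *Ctbp1*, encoding its corepressor, at 0.16, and *S1pr1*, encoding a receptor that T cells use to leave lymph nodes, at -0.02.

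**Figure D4:**
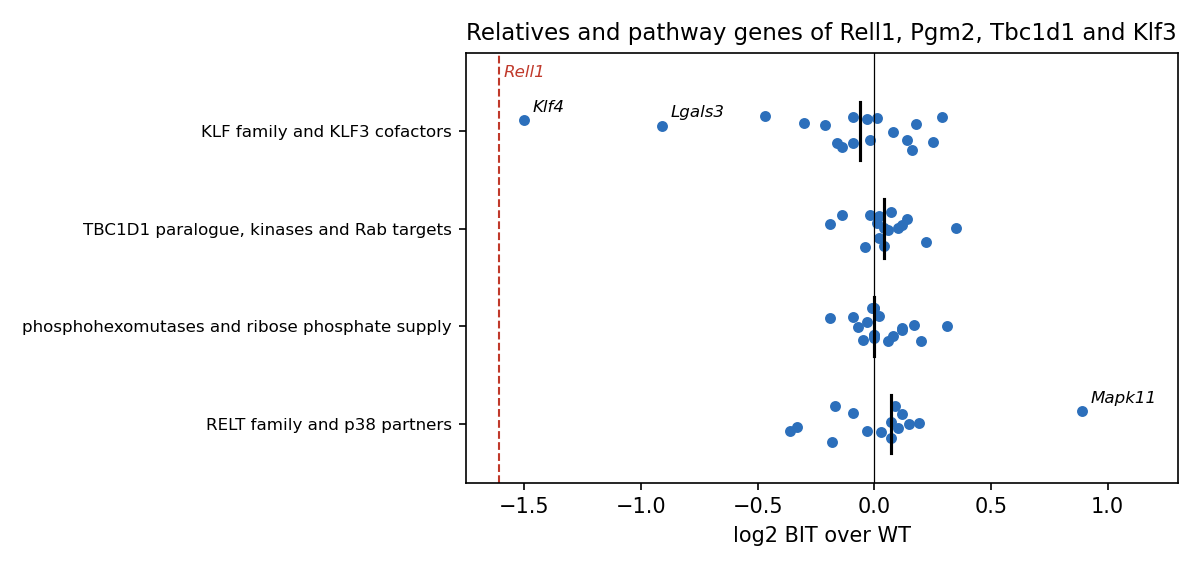
The log2 difference of BIT over WT (horizontal axis) for the 68 tested genes of the 4 lists, 1 point per gene, with the median of each list as a black line and Rell1 at -1.61 as a dashed line. The medians lie between -0.0584 and 0.0685.

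Across the 6 libraries, the genes outside the 6 whose log2 CPM was most like that of *Rell1* were *Psmb8* (Pearson r = 0.997), *Gm27008* (r = 0.990), *Tas1r3* (r = 0.988), *Izumo1r* (r = 0.984) and *Mid1* (r = 0.984). Among the 6, r with *Rell1* was 0.989 for *5830416I19Rik*, 0.983 for *Pgm2*, 0.980 for *Gm71522*, -0.208 for *Klf3* and -0.443 for *Tbc1d1*. The libraries form 2 groups by genotype, so these values describe the difference between the groups and the evenness within them, over libraries that share their processing. *Mid1* had 2036, 1723 and 1702 counts in WT and 799, 606 and 716 in BIT mice, and *Izumo1r* 1144, 1111 and 1031 against 574, 483 and 420. *Gm27008*, *Tas1r3*, *Izumo1r* and *Mid1* lie on chromosomes 3, 4, 9 and X, and *Psmb8* on 17.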

How the data were processed

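RNA of TCRβhigh CD4-CD8+ T cells of 3 WT and 3 BIT mice was prepared by the authors with a stranded kit that removes ribosomal RNA. The table deposited by the authors holds estimated counts per gene. Reads were trimmed (cutadapt 1.18), aligned to GRCm39 (STAR 2.7.0f) and counted with RSEM 1.3.1 on Gencode M38, per the submitters' processing notes and the study's methods. The strand setting of the counting is not given in the sources used here. RSEM divides reads that match several genes. Positions, gene types and exon lengths came from Gencode M39, made on that assembly too, where 78263 of the 78275 identifiers were found.

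Estimated counts were rounded, filtered with filterByExpr of edgeR 4.0.16, quantile-normalized and fitted with voom and limma 3.58.1 in R 4.3.3, with no replicate term. p-values were adjusted by Benjamini-Hochberg over the 16105 genes tested, and the script was tested on simulated data. Levels are CPM with TMM factors. Quantile normalization would hide a shift of most genes. Alternatives were TMM, edgeR's quasi-likelihood test, DESeq2 1.42.0, other filters, quality weights, a replicate block, a batch term for replicate 3, replicates 1 and 2 alone, and each mouse left out.

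The 6 genes, the 4 pathway lists, the marker lists and the 1 Mb window were chosen with earlier results of these data known. Beyond the 6 genes, the genes named were *Psmb8*, *Psmb11*, every tested gene of the window, of each list the genes past the threshold or otherwise that with the smallest p, 6 relatives of the protein-coding genes, and the 5 genes most like *Rell1*. Other list genes, marker genes, *Pgcka1*, *Gm15819*, *Arap2* and those around *Rhoh* were named after their values were seen.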

Additional observations from a re-analysis of the deposited data

How the results depend on the processing

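With each mouse left out, the log2 difference stayed between -1.68 and -1.55 for *Rell1*, -0.41 and -0.37 for *Pgm2*, 0.02 and 0.15 for *Tbc1d1* and -0.02 and 0.15 for *Klf3*, and under the other settings between -1.64 and -1.58, -0.39 and -0.37, 0.08 and 0.13, and 0.04 and 0.11. *5830416I19Rik* was between 0% and 0.518% of WT with a mouse left out, the 0% being without BIT replicate 1. The ratio of *Gm71522* at the floor of 3 BIT counts was between 14.0 and 25.2-fold with a mouse left out. On replicates 1 and 2 alone, where fewer BIT counts were summed, it was 14.5-fold. The numbers of calls depended more on the settings. Of all genes, 22 passed an adjusted p of 0.05, against 14 by edgeR, 125 by DESeq2, 42 with a batch term for replicate 3, 71 on replicates 1 and 2 alone and 4 at an adjusted p under 0.01 and more than 2-fold, and between 1 and 37 with a mouse left out, the extremes being the fits without WT replicate 1 and without WT replicate 3. It was 4 without WT replicate 2, 9 without BIT replicate 1, 2 without BIT replicate 2 and 11 without BIT replicate 3. The cause was not tested. Of the 6 genes, between 0 and 3 passed with a mouse left out, *Gm71522* in 1 of these 6 fits and *Rell1* and *5830416I19Rik* in 4. By edgeR and by DESeq2 2 of the 6 passed, without *Gm71522*. Of the neighbours, 2 passed by DESeq2 (3 in the window of 2 Mb) and 0 under every other setting. By limma-voom, 0 passed in windows of 500 kb and 2 Mb. An unadjusted p under 0.05 by limma-voom was found for 10 of 40 with the batch term for replicate 3, beside 2316 of 16105 genes. On replicates 1 and 2 alone it was 9 of 38, beside 2311 of 16185, and with the replicate block 8 of 40, beside 2005 of 16105. Without BIT replicate 2 it was 2 of 43, beside 648 of 16874. Of the list genes, 1 passed by DESeq2 (*Mapk11*) and 1 on replicates 1 and 2 alone (*Klf4*), and 0 under every other setting.

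Whether the replicate numbers pair the mice was not settled by these data. Deviations of same-numbered mice correlated at 0.139, 0.0255 and 0.332, the last being the highest of all pairs. WT replicates 1 and 3 correlated best with the BIT mouse of their own number, but WT replicate 2 correlated best with BIT replicate 1, at 0.244. With the replicate number as a block, 21 genes passed, 3 of the 6, 0 neighbours and 0 list genes, and *Rell1* was at -1.60.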

Other observations

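About 1 Mb above *Klf3*, the 6 tested genes wholly inside a stretch of 113185 bases, chr5:65960105-66073289, were all lower in BIT mice. *N4bp2*, which reaches into it from below, was at -0.13 (adjusted p = 0.774 by limma-voom) between overlapping groups. The stretch was picked after its values were seen, lies mostly outside the window examined, and none of its genes passed an adjusted p of 0.05 in limma-voom, though 4 had an unadjusted p under 0.05. edgeR's quasi-likelihood test called 0, with 6 at an unadjusted p under 0.05, and DESeq2 called 2 (*Gm3521*, adjusted p = 0.032, and *Gm32474*, adjusted p = 0.0486), with 6. *Rhoh*, encoding a small GTPase of T cell receptor signalling, had 9561, 9719 and 9864 counts in WT and 6020, 5599 and 7735 in BIT mice, a log2 difference of -0.48 (SE 0.163, adjusted p = 0.531 by limma-voom). *Gm3521*, described above, and *Gm43004* both end before its start. *Gm43004* had 31, 31 and 43 counts in WT and 3, 6 and 13 in BIT mice, a difference of -1.81 (SE 0.433, adjusted p = 0.349 by limma-voom). DESeq2 gave *Gm43004* no adjusted p. The other 3 genes overlap *Rhoh* or follow it, with *Gm32474* at -0.89, *Gm57277* at -1.05 and *Gm43769* at -0.74. For 4 of the 6 genes the WT and BIT mice did not overlap on the normalized log2 scale, as in 13.3% of all genes. An unadjusted p under 0.05 was found for 1380 of all 16105 genes by limma-voom, 1198 by edgeR and 1161 by DESeq2. Several of the 6 overlap, and how reads were divided between overlapping transcripts was not tested.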
